A study of Mus musculus with 11 samples.

Results

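Solute carriers are described here in mouse embryonic fibroblasts with 2, 1 or 0 intact copies of Actb, the gene of cytoplasmic β-actin. The members were chosen by their level: they are the gene symbols made of "Slc" and a number whose mean deposited FPKM (fragments per kilobase of transcript, scaled to sequencing depth, so a level per length), summed over loci of a symbol, was at least 2 over the 11 libraries. This took 167 of 378 such symbols, from 41 of 49 families, among 46469 symbols in the tables. The rule used the level over all groups and no contrast, but 15 members had a mean below 2 FPKM in at least 1 group, so their place rests on the other groups. The mean reached 2 FPKM in 1 group alone for 4 of them. These were Slc43a3, Slc1a3 and Slc4a3 in Het and Slc6a15 in KO. A difference of that group is then partly built into the choice, so their values are given as a description with no p-value, although they stay in the counts. Just inside the limit were Slc35f2 (2.09), Slc41a3 (2.32) and Slc45a3 (2.33 FPKM), and just outside were Slc43a2 (1.97), Slc40a1 (1.70) and Slc7a3 (1.67 FPKM). By their names 6 members are not transporters: the scaffold proteins Slc9a3r1 and Slc9a3r2, the adaptor Slc4a1ap, the opposite-strand gene Slc7a6os and the pseudogenes Slc25a5-ps and Slc39a1-ps. The other 161 count as transporters here, and all 167 were placed by family into 13 substrate classes.

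The cells came from BALB/c embryos at 10.5 days and were Actb +/+ (WT, n = 4), Actb +/- (Het, n = 4) or Actb -/- (KO, n = 3, replicates 1, 3 and 4). They grew in DMEM, and RNA was taken at 70% confluence. A further KO library failed the submitters' quality control. The labels do not say whether replicates were separate embryos or cultures, so a p-value here speaks only to the scatter among these libraries, part of which may be technical.

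Solute carriers are membrane proteins that move ions, sugars, amino acids, nucleosides, vitamins and metals across the plasma membrane and the membranes of organelles, by facilitated diffusion, exchange or coupling to an ion gradient. The Slc25 family sits mainly in the inner mitochondrial membrane, and the Slc35 family loads the Golgi and the endoplasmic reticulum with nucleotide sugars. In growing fibroblasts, carriers of glucose, lactate and amino acids are known to answer to hypoxia and amino acid supply, and several amino acid carriers are targets of the transcription factor ATF4.

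From 13885 to 14202 genes had at least 1 FPKM, depending on the library, and depth, estimated from the steps of low values, lay between 60.7% (WT 3) and 125% (WT 4) of WT 1. Actb measured 1325 ± 199.6 FPKM over the 4 WT libraries, 837 ± 23.97 over the 4 Het libraries and 45.8 ± 1.27 over the 3 KO libraries (all SD). Of 11 fibroblast markers 10 averaged over 1 FPKM, and their sum was 1507 to 1981 in WT, 2404 to 2729 in Het and 3649 to 4309 in KO, with Pdgfra and Thy1 at 0.212 and 0.0248 FPKM in WT. The sum of 4 smooth muscle markers was 94.7 to 105 in WT, 233 to 248 in Het and 7131 to 7914 FPKM in KO. Acta2 held most of this sum, averaging 56.1, 201 and 6541 FPKM in WT, Het and KO. Tagln averaged 43.9, 39.6 and 835, Cnn1 1.36, 2.51 and 266, and Myh11 0.465, 0.388 and 0.919 FPKM. Of the 3 tested, all rose in KO, while in Het 2 rose and 1 fell. Summed markers reached at most 0.534 FPKM for endothelium and ran from 1.19 to 4.59 for blood, with Cd68 the 1 marker above 1 FPKM. Krt19 and Krt18 (epithelium) and Stmn2 (neurons) averaged 42.9, 1.70 and 7.88 FPKM in WT, 24.4, 6.53 and 16.3 in Het, and 37.9, 0.215 and 1.95 in KO, while Ptprc, Sox10 and Tie1 were at 0. Fewer cells of a type and less RNA per cell cannot be told apart in these bulk libraries, and the part of these marker shifts in the Slc differences was not tested.

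Libraries within a group also differed with the GC content of the transcript, and WT 1 and WT 4 stood furthest apart. Across 13318 tested genes with a transcript sequence, which are not independent, the Spearman correlation between GC content and a library's deviation from its group mean was -0.71 in WT 1 and 0.73 in WT 4. Across the 167 members it was -0.84 and 0.86. In WT, 45 members had their lowest value in WT 1 and the highest in WT 4, and 38 the reverse. The KO minus WT difference of members correlated with GC content at 0.17 and the Het minus WT difference at 0.24. Counts over all members and over the 13 classes are also given after a per-library GC correction, an alternative chosen after seeing the data.

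**Figure D1:**
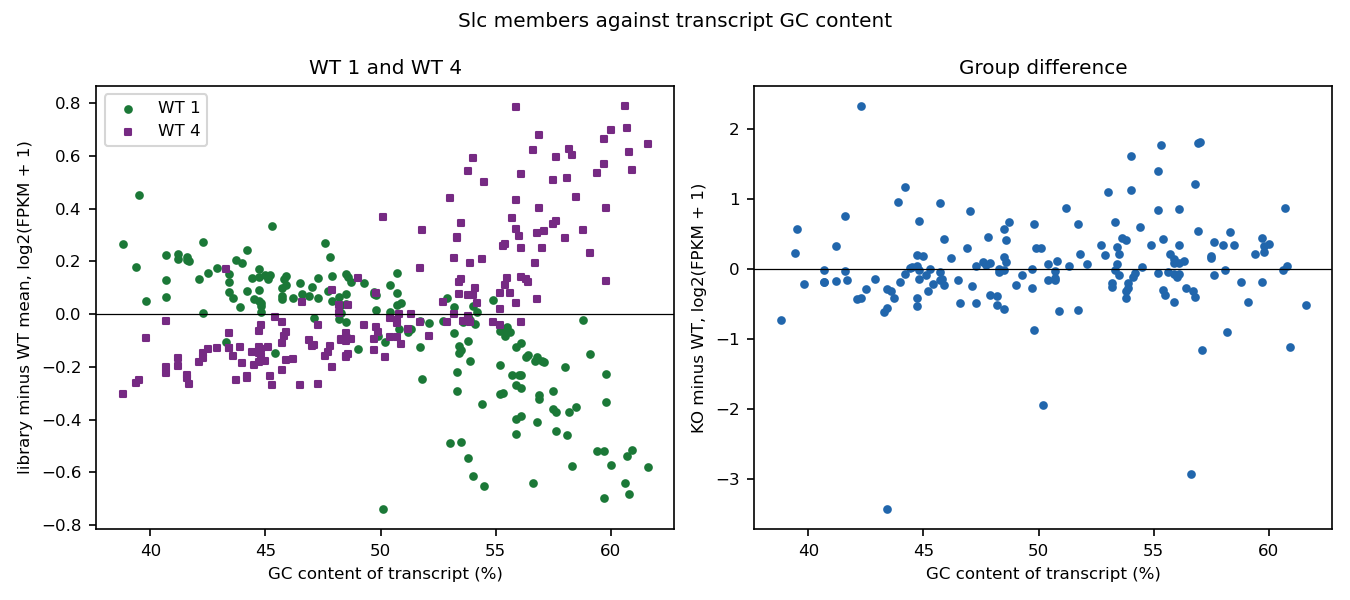
Members plotted by GC content of their longest transcript (x axis, percent). Left, the value of WT 1 (circles) and WT 4 (squares) minus the WT mean on the log2(FPKM + 1) scale, where the trends run in opposite directions (Spearman -0.84 and 0.86); right, the KO minus WT difference of each member, with a correlation of 0.17.

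Levels spanned a wide range. The ADP/ATP exchangers Slc25a4 and Slc25a5 and the mitochondrial phosphate carrier Slc25a3 together held 30.5% of the summed Slc FPKM. Only 12 members averaged 50 FPKM or more, 80 lay from 10 to 50 and 75 below 10, with a median of 10.6 FPKM. Summed over all members, the level was 3672 ± 165.5 FPKM over the 4 WT libraries, 3559 ± 71.8 over the 4 Het libraries and 3920 ± 90.1 over the 3 KO libraries (all SD). The WT and KO sums overlapped, since WT 4 (3874) exceeded KO 1 (3833).

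In KO against WT, 41 members rose and 38 fell of 167, all of which were tested; 47.1% of all 14948 genes tested were called in this comparison, with 23.3% higher and 23.8% lower, so the members' share is near the background. The members' median log2 difference was -0.005 beside 0.009 for all genes tested. At 2-fold or more on the log2(FPKM + 1) scale 10 members rose and 5 fell, beside 4.84% and 2.72% of all genes. Without scaling between libraries 35 rose and 55 fell, so higher calls were 38.9% of calls in place of 51.9%, and over all genes 37.1% in place of 49.4%. After the GC correction 43 rose and 50 fell, while 57.4% of the genes so tested were called.

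In Het against WT, 29 members rose and 55 fell, beside 43.8% of all genes called, 21.7% higher and 22.1% lower. The members' median difference was -0.071 beside 0.008 for all genes. At 2-fold or more 3 members rose and 1 fell, beside 3.05% and 1.61% of all genes. After the GC correction 48 rose and 65 fell, so the number that rose in Het depends on that setting by more than 1.5 times, while 55.8% of genes were called. In KO against Het 46 rose and 29 fell, beside 44.2% of all genes called, and at 2-fold or more 6 rose and 5 fell, beside 3.46% and 2.95% of all genes. Without scaling 38 rose and 37 fell, so higher calls were 50.7% of calls in place of 61.3%. Over all genes, higher calls were 36.5% of calls without scaling in place of 49.8%. The members' share of higher calls was thus above that of all genes in both settings. After the GC correction 63 members rose and 41 fell in KO against Het, while 56.1% of the genes so tested were called.

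Het did not lie between WT and KO for many members, but the patterns below were counted for the members only. With 43.8% to 47.1% of all genes called in each comparison, how common they are over all genes was not counted. Of the 167, 47 were called in none of the 3 comparisons, 7 rose in all 3 and 6 fell in all 3. Another 16 fell in Het, were higher in KO than in Het and were not called in KO against WT, among them the arginine and lysine transporter Slc7a1, the heme transporter Slc48a1 and the lactate transporter Slc16a1. A further 6 rose in KO and fell in Het, namely Slc1a4, Slc38a1, Slc38a2, Slc3a2, Slc6a15 (a member through KO alone) and Slc4a4. The reverse, a rise in Het with a fall in KO, held for Slc25a12, Slc35c1 and Slc43a3 (a member through Het alone). The KO fall of Slc43a3 was not called in 8 of the 18 alternatives given below, the GC correction among them. The Het fall of Slc6a15 was not called in 11 of the 18.

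**Figure D2:**
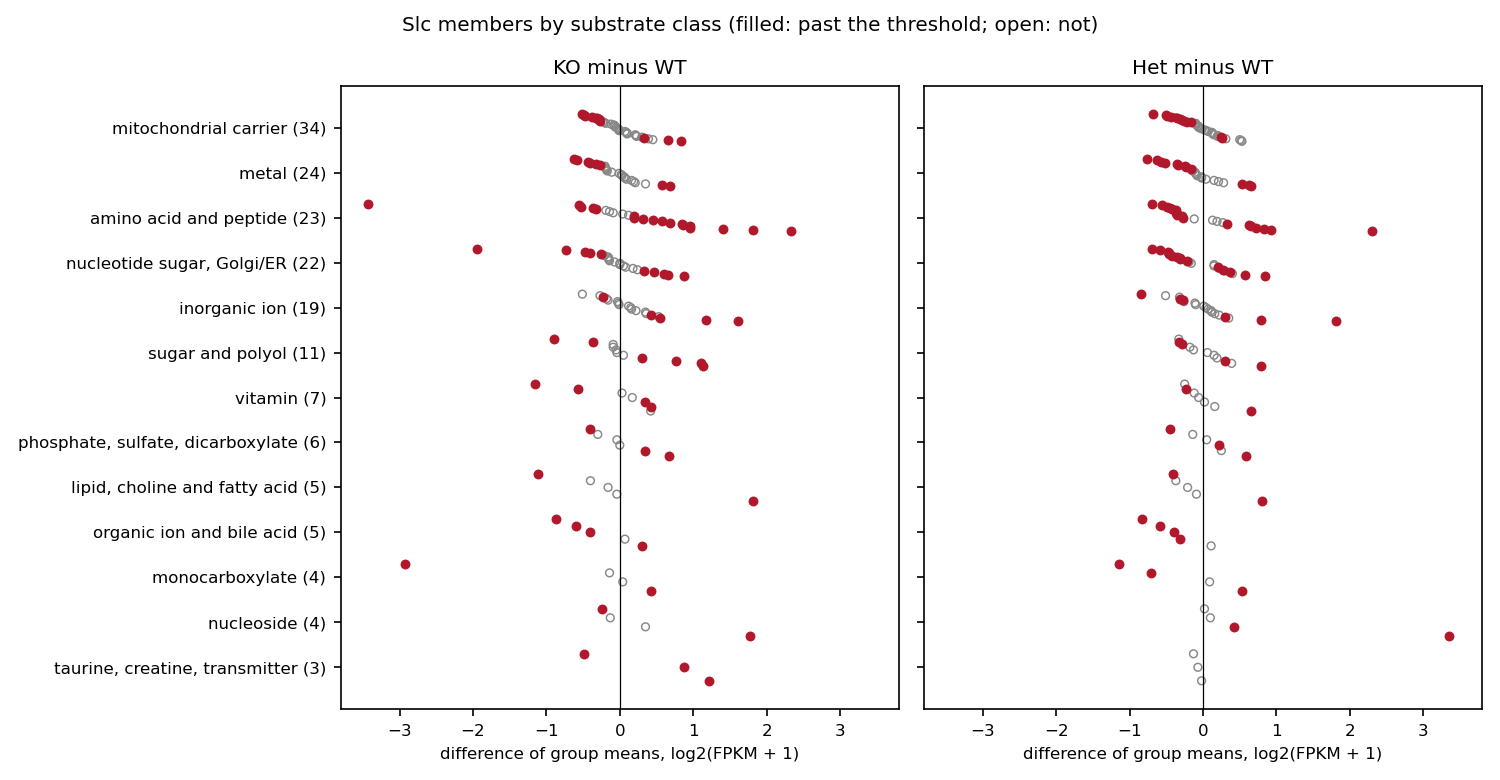
Each point is a member, placed by its difference of group means on the log2(FPKM + 1) scale (x axis) within its substrate class (y axis, number of members in brackets), for KO minus WT (left) and Het minus WT (right). Filled points passed the threshold. The furthest on the left panel are Slc38a4 (-3.43) and Slc6a15 (2.33), and on the right panel Slc16a3 (-1.14) and Slc43a3 (3.35). Slc6a15 is a member through KO alone and Slc43a3 through Het alone, so their places here are partly built into the choice.

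**Figure D3:**
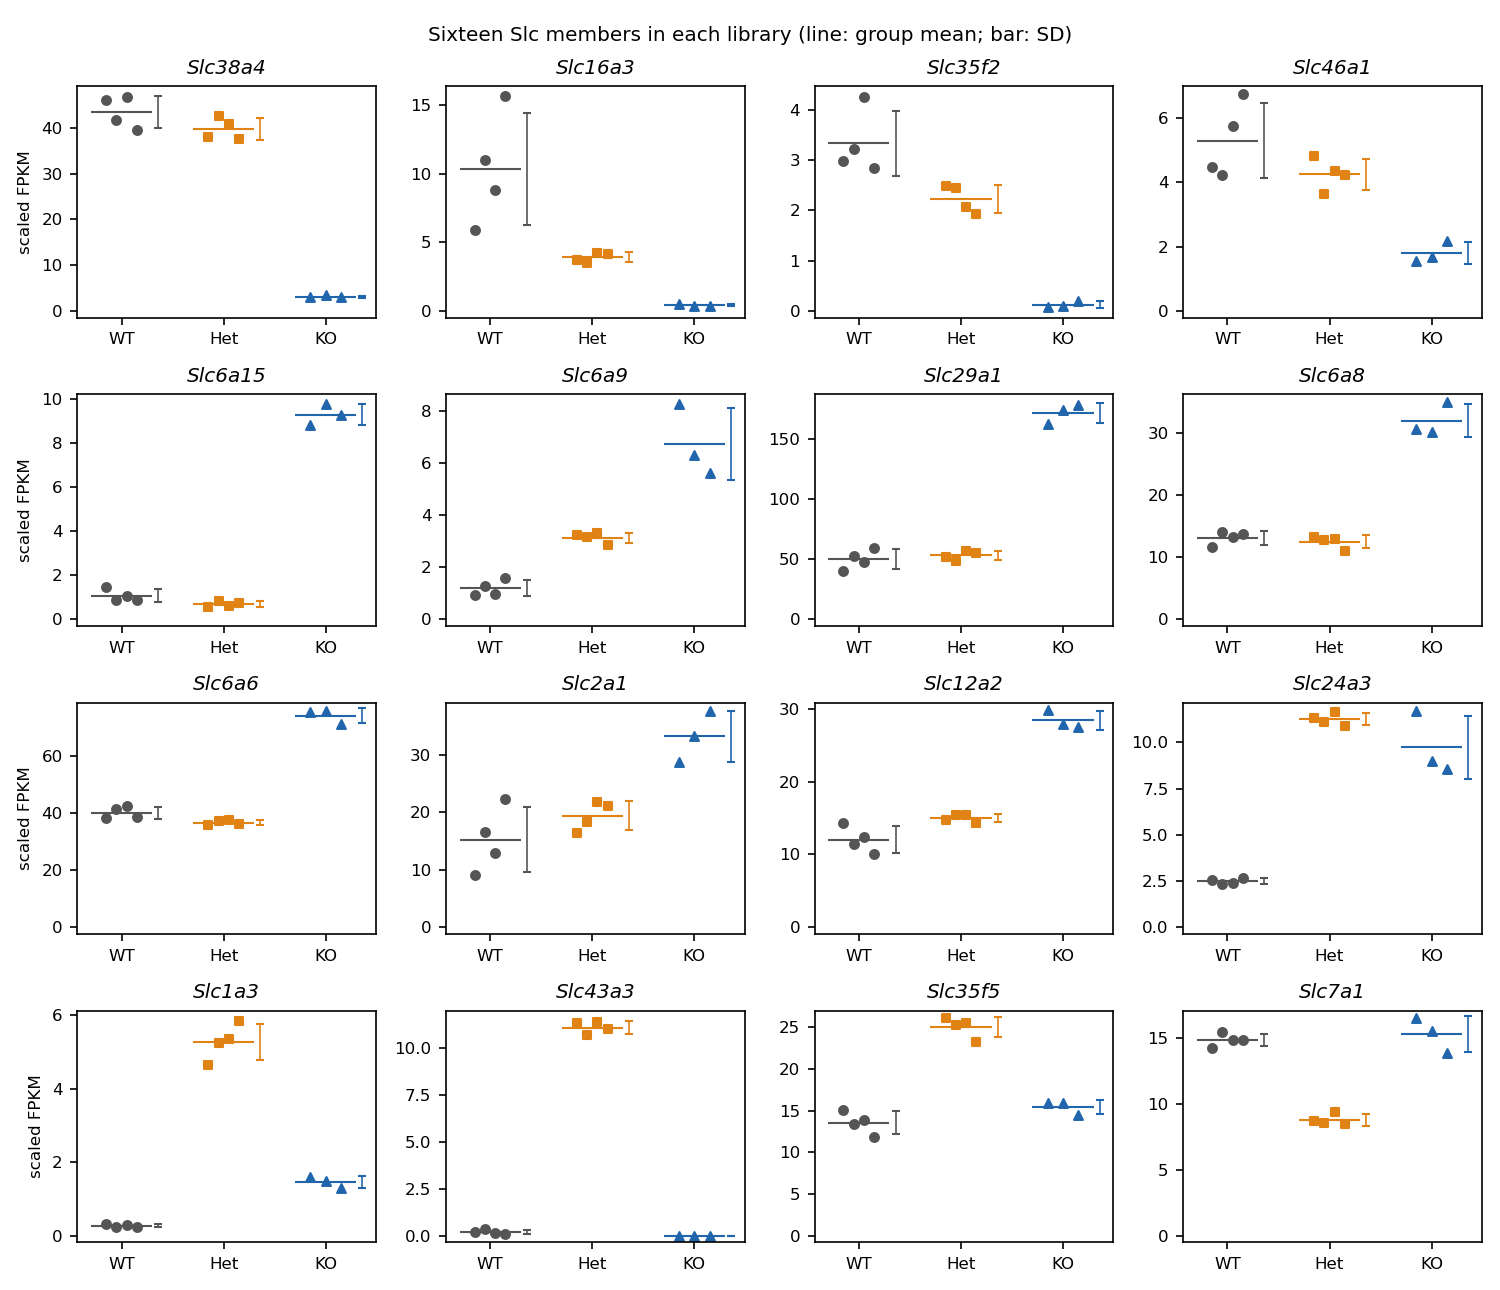
Scaled FPKM (y axis) of 16 members in the WT, Het and KO libraries (x axis), with the group mean as a line and the SD as a bar. Slc38a4 drops in KO (3.12 against 43.5 FPKM in WT), Slc29a1 is high in KO (172 FPKM), and Slc43a3 and Slc35f5 are high in Het.

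Most amino acid and peptide transporters differed from WT. In KO 13 of 23 rose and 5 fell, a called share of 78.3% beside the 47.1% of all genes, and in Het 7 rose and 12 fell, 82.6% beside 43.8%. Without scaling 10 rose and 7 fell in KO, and the GC correction gave 12 up and 6 down in KO, and 9 up and 12 down in Het. The class sum was 519 ± 9.32 FPKM over the 4 WT libraries, 471 ± 10.98 over the 4 Het libraries and 561 ± 27.4 over the 3 KO libraries (all SD). Het lay below both other groups, but the lowest KO sum (531.8, KO 4) barely exceeded the highest WT sum (531.4, WT 2). That gap rests on scaling, with factors of 0.9601 in KO 4 and 1.023 in WT 2.

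The furthest fall was in Slc38a4 (gene37332, chr15:96994816-97055956, mouse build GRCm38), a sodium-coupled transporter of neutral amino acids whose gene is imprinted. It measured 46.1, 41.6, 46.7 and 39.6 FPKM in WT, 38.01, 42.7, 40.9 and 37.6 in Het and 2.94, 3.38 and 3.05 in KO. All KO libraries lay far below all others, while WT and Het overlapped. The KO mean was 0.0718 times the WT mean, with a log2 difference of -3.43 ± 0.08 (SE, adjusted p = 1.18e-10); Het differed from WT by -0.12 ± 0.07 (SE, adjusted p = 0.186).

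Its relatives Slc38a1 and Slc38a2, which take up glutamine and alanine, went the other way in KO. Slc38a1 (gene37325, chr15:96571418-96642913) measured 24.7, 23.1, 25.5 and 22.8 FPKM in WT, 16.5, 18.3, 16.8 and 15.9 in Het and 39.5, 36.5 and 33.5 in KO. Its 3 groups were separate, with Het lowest and KO highest, at 0.58 ± 0.07 (SE, adjusted p = 6.83e-05) in KO against WT and -0.49 ± 0.07 (SE, adjusted p = 0.000181) in Het against WT. Slc38a2, the most abundant member of the class, measured 109, 104, 103 and 93.95 FPKM in WT, 79.2, 81.2, 79.3 and 76.6 in Het and 125, 118 and 110.2 in KO, with KO above WT and Het below it. Its fall in Het was -0.37 ± 0.06 (SE, adjusted p = 0.000441). Its rise in KO was small (0.20 ± 0.06 SE, adjusted p = 0.0235) and was lost without scaling (0.10, adjusted p = 0.148), in the fit of the 2 groups alone (adjusted p = 0.0729), without KO 1 (adjusted p = 0.0987) and without KO 3 (adjusted p = 0.0703).

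Slc3a2, the heavy chain that carries several Slc7 transporters to the cell surface, had the same order. It measured 85.5, 101, 93.99 and 99.98 FPKM in WT, 66.02, 78.7, 73.9 and 73.8 in Het and 128, 122 and 107 in KO, and the groups did not overlap. It fell in Het (-0.37 ± 0.08 SE, adjusted p = 0.00288) and rose in KO (0.32 ± 0.09 SE, adjusted p = 0.0101), a rise not called without scaling (0.22, adjusted p = 0.0583). Of its light chains, Slc7a6 fell in both groups, while Slc7a5 and Slc7a11 fell in Het and were not called in KO. Slc7a5, which carries leucine and other large neutral amino acids, averaged 33.7, 24.4 and 36.6 FPKM in WT, Het and KO, and differed by -0.45 ± 0.08 (SE, adjusted p = 0.00134) in Het and 0.12 ± 0.09 (SE, adjusted p = 0.317) in KO. Slc7a11, the cystine and glutamate exchanger, measured 14.8, 12.8, 15.01 and 13.8 FPKM in WT, 9.72, 11.7, 11.2 and 10.6 in Het and 13.3, 11.8 and 11.5 in KO. Het lay below every WT library, and KO overlapped both. The Het difference of Slc7a11 was -0.36 ± 0.08 (SE, adjusted p = 0.00335) and the KO difference -0.19 ± 0.08 (SE, adjusted p = 0.0765), with 2 SE either side spanning -0.36 to -0.03; the KO fall was called without scaling (-0.29, adjusted p = 0.00976), without KO 1 (-0.25, adjusted p = 0.0454) and without WT 2 (-0.24, adjusted p = 0.0455).

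Of the 6 Slc7 symbols 5 fell in Het and 1 rose, beside 22.1% of all genes called lower and 21.7% higher. Slc7a6os, which is not a transporter, is among the 5 that fell. Slc7a1, the main transporter of arginine and lysine, measured 14.2, 15.4, 14.8 and 14.8 FPKM in WT, 8.69, 8.56, 9.41 and 8.43 in Het and 16.5, 15.6 and 13.8 in KO. Every Het library lay below every WT and KO library, which overlapped each other. The Het difference of Slc7a1 was -0.70 ± 0.06 (SE, adjusted p = 1.01e-05), and the KO difference 0.04 ± 0.07 (SE, adjusted p = 0.697). Slc7a2, a second transporter of the same substrates and named after its values were seen, was the member that rose, with 2.17 ± 0.182 FPKM over the 4 WT libraries, 3.995 ± 0.3596 over the 4 Het libraries and 5.19 ± 0.507 over the 3 KO libraries (all SD), at 0.96, adjusted p = 7.82e-06 in KO.

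Promoters are shown for Slc7a11, Slc38a2 and Slc7a1, 3 amino acid carriers that fell in Het and hold a match to a sequence named below. In all, 12 of the 23 members of the class fell in Het. The ATF4 and NRF2 transcripts (Atf4, Nfe2l2) moved in opposite directions, as given below. The 150 bases before the RefSeq start on GRCm38.p6 are printed from 5′ to 3′, with capitals for matches, on either strand, to TGATGNAA, a short form of the amino acid response element, or TGACNNNGC, a core of the antioxidant response element. They are Slc7a11 (chr3:50443614-50443763, minus strand, 2 matches to TGATGNAA), Slc38a2 (chr15:96699729-96699878, minus strand, 1 match to TGACNNNGC) and Slc7a1 (chr5:148399905-148400054, minus strand, 1 match to TGACNNNGC). The RefSeq start of Slc7a11 lies inside the locus of the deposited tables.
Slc7a11: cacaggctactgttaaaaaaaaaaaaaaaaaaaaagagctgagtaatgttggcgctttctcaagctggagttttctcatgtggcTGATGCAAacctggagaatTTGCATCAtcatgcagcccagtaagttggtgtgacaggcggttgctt
Slc38a2: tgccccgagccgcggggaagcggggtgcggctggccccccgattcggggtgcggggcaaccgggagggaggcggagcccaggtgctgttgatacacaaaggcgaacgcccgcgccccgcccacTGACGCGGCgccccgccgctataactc
Slc7a1: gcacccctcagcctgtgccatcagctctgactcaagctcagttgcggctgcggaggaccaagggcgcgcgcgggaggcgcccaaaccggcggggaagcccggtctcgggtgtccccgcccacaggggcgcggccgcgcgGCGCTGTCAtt
In the RefSeq windows from 250 bases before to 50 after a start, TGATGNAA occurred in 3.97% of 32851 windows and in 1.72% of the 174 windows of 128 members, and TGACNNNGC in 12.4% and 21.8%. Slc6a9, which rose in both Het and KO, also held matches to TGACNNNGC and is not printed. A match is a string of letters and shows no binding, and its part in the Het falls was not tested.

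Glutamate and neutral amino acid exchangers of the Slc1 family differed from one another. Slc1a3, a high-affinity glutamate transporter, measured 0.325, 0.2303, 0.292 and 0.247 FPKM in WT, 4.65, 5.25, 5.35 and 5.84 in Het and 1.601, 1.49 and 1.297 in KO. All 3 groups were separate, and Het was highest. The Het mean was 19.3 times the WT mean, and only in Het did the mean reach the limit for members. Slc1a5, the main glutamine exchanger, measured 12.1, 15.7, 12.01 and 15.96 FPKM in WT, 14.7, 16.8, 16.8 and 19.6 in Het and 10.2, 10.8 and 11.5 in KO. KO lay below both other groups, but its fall in KO (-0.32 ± 0.12 SE, adjusted p = 0.0445) was not called without WT 2, WT 4, Het 2, Het 3 or any KO library (adjusted p = 0.0605 to 0.128), without the filter on low values (adjusted p = 0.0849) or in the fit of the 2 groups alone (adjusted p = 0.0707). The fall from Het to KO was -0.60 ± 0.12 (SE, adjusted p = 0.00195). Slc1a4, a close relative of Slc1a5 that was named for its pattern, fell in Het and rose in KO (0.20, adjusted p = 0.0336), and that rise was lost without scaling (adjusted p = 0.191) and after the GC correction (adjusted p = 0.18).

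All 5 members of the Slc6 family, sodium- and chloride-coupled transporters of amino acids and osmolytes, rose in KO, beside 23.3% of all genes called higher. All 5 were also called without scaling and after the GC correction, but Slc6a15 is a member only through its KO level and Slc6a9 averaged under 2 FPKM in WT. Slc6a15, a transporter of branched-chain amino acids and proline, measured 1.48, 0.878, 1.05 and 0.849 FPKM in WT, 0.5403, 0.823, 0.603 and 0.755 in Het and 8.798, 9.75 and 9.28 in KO. KO stood alone, with a mean 8.72 times that of WT, and all WT and Het libraries lay under 2 FPKM. Slc6a9, the glycine transporter GlyT1, measured 0.9199, 1.26, 0.986 and 1.58 FPKM in WT, 3.22, 3.15, 3.29 and 2.84 in Het and 8.28, 6.33 and 5.62 in KO, rising from WT to Het to KO with no overlap (0.92 ± 0.12 SE, adjusted p = 0.000137, in Het and 1.82 ± 0.13 SE, adjusted p = 1.18e-06, in KO). Slc6a8, which takes up creatine, measured 11.6, 14.02, 13.2 and 13.7 FPKM in WT, 13.2, 12.8, 12.9 and 10.99 in Het and 30.7, 30.2 and 35.1 in KO. WT and Het overlapped, KO lay above both, and the difference was 1.22 ± 0.09 (SE, adjusted p = 1.04e-06). Slc6a6, which takes up taurine, measured 38.3, 41.5, 42.5 and 38.7 FPKM in WT, 35.9, 37.2, 37.5 and 36.4 in Het and 75.5, 75.9 and 71.2 in KO, and its KO difference was 0.87 ± 0.05 (SE, adjusted p = 3.53e-07). Slc6a17, the remaining member, averaged 10.96, 12.6 and 20.7 FPKM in WT, Het and KO (0.86, adjusted p = 7.04e-05 in KO).

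Transporters of the lysosomal membrane were mixed. Slc38a7, which exports glutamine from lysosomes, measured 4.29, 5.56, 6.92 and 5.62 FPKM in WT, 12.4, 10.2, 10.01 and 9.88 in Het and 15.3, 18.2 and 15.3 in KO, and its groups rose in steps with no overlap (1.40 ± 0.13 SE, adjusted p = 8.18e-06, in KO and 0.83 ± 0.12 SE, adjusted p = 0.000273, in Het). Among members named after their values were seen, Slc15a4, a lysosomal carrier of histidine and peptides, rose in KO from 9.04 ± 0.518 to 17.1 ± 1.78 FPKM (SD), while Slc38a9, the arginine sensor of the lysosome, fell in KO (-0.53, adjusted p = 0.011) and Het (-0.37, adjusted p = 0.0427).

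**Figure D4:**
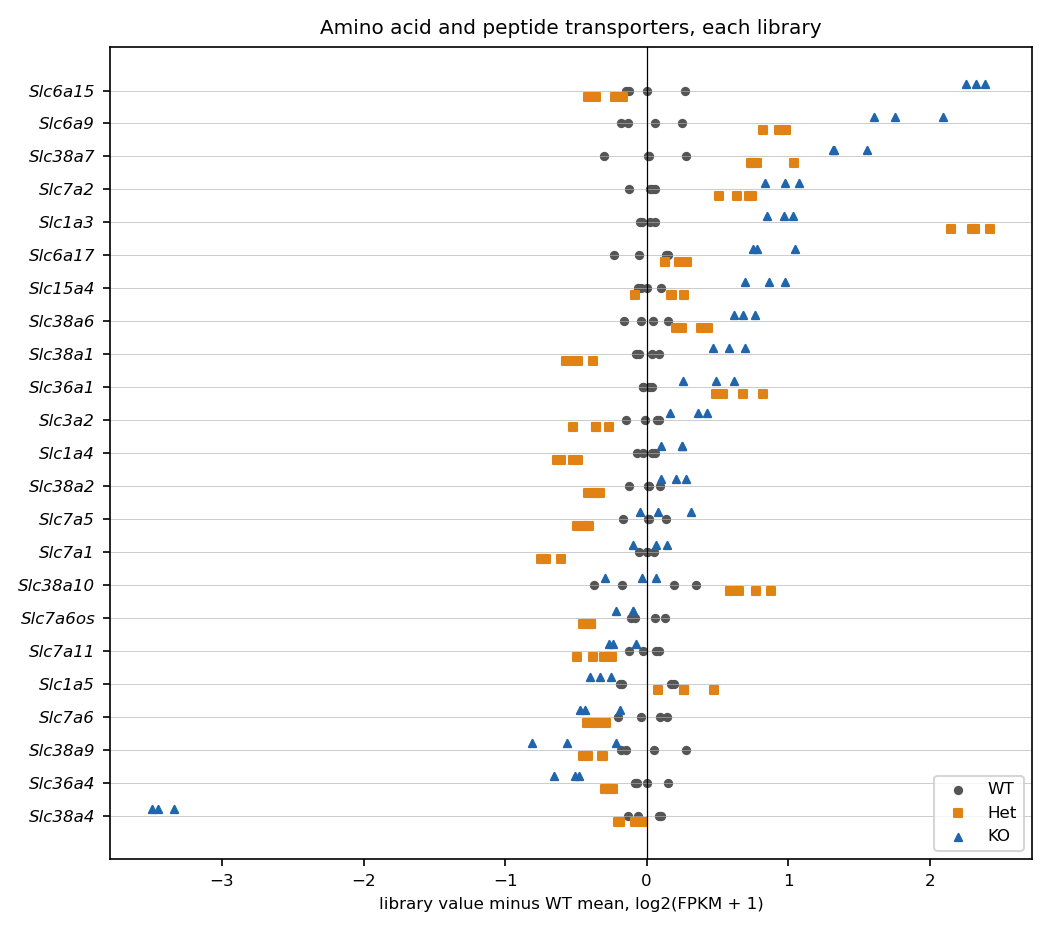
The 23 amino acid and peptide members (rows), each library placed by its value minus the WT mean on the log2(FPKM + 1) scale (x axis); circles are WT, squares Het and triangles KO. Triangles of Slc38a4 lie near -3.43, those of Slc6a15 near 2.33, and squares of Slc1a3 near 2.30. Slc6a15 is a member through KO alone and Slc1a3 through Het alone.

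Beside these amino acid carriers, regulators of amino acid supply were read from a list set for this work. Atf4, the transcription factor of the amino acid response, measured 171, 194, 185 and 192 FPKM in WT, 137, 141, 127 and 139 in Het and 252, 265 and 254 in KO. It rose in KO (0.47 ± 0.06 SE, adjusted p = 8.21e-05) and fell in Het (-0.44 ± 0.06 SE, adjusted p = 9.51e-05), with no overlap. Its targets Asns, Trib3 and Chac1 rose in KO (0.92, adjusted p = 0.000224; 1.29, adjusted p = 0.000143; and 1.58, adjusted p = 3.6e-05), and of these Trib3 also rose in Het (0.50, adjusted p = 0.0291). Nfe2l2, which encodes NRF2, fell in KO (-0.57 ± 0.09 SE, adjusted p = 0.00032) and rose in Het (0.70 ± 0.08 SE, adjusted p = 5.27e-05). The glutathione synthesis genes Gclc and Gclm fell in both, and Gss fell in KO (-0.64, adjusted p = 0.000146).

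The glucose importer Slc2a1 rose and the lactate exporter Slc16a3 fell in KO. In the sugar and polyol class 4 of 11 rose and 2 fell in KO, and 2 rose and 2 fell in Het. Called genes made up 54.5% of the group in KO and 36.4% in Het, beside 47.1% and 43.8% of all genes. The GC correction gave 4 up and 2 down in KO, and 3 up and 4 down in Het. Slc2a1 (gene10086, chr4:119108745-119137330), the glucose transporter GLUT1, measured 9.16, 16.6, 12.9 and 22.4 FPKM in WT, 16.5, 18.3, 21.8 and 21.1 in Het and 28.8, 33.2 and 37.6 in KO. All KO libraries exceeded all others, but WT spread from 9.16 in WT 1 to 22.4 in WT 4, and the GC content of its transcript is 54%. The KO difference was 1.13 ± 0.23 (SE, adjusted p = 0.00214), and 1.04 (adjusted p = 0.000502) after the GC correction. Het differed from WT by 0.39 ± 0.21 (SE, adjusted p = 0.171), or by 0.58, adjusted p = 0.0186 without WT 4. The KO minus Het difference (0.74 ± 0.23 SE, adjusted p = 0.0227) was not called without Het 1, Het 2, KO 3 or KO 4 (adjusted p = 0.0506 to 0.0844), nor without scaling (adjusted p = 0.0526) or without the filter on low values (adjusted p = 0.0561).

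Slc45a4, of a family of proton-coupled sugar carriers, rose in both, measuring 4.15, 6.94, 5.79 and 8.81 FPKM in WT, 11.3, 10.5, 12.1 and 12.01 in Het and 13.8, 13.9 and 15.6 in KO (1.10 ± 0.17 SE, adjusted p = 0.000368, in KO and 0.79 ± 0.16 SE, adjusted p = 0.00231, in Het). Slc2a6, a glucose transporter of intracellular membranes, fell in KO (-0.90 ± 0.25 SE, adjusted p = 0.0123) from 3.67, 5.37, 3.79 and 8.3 FPKM in WT, 3.81, 2.74, 4.58 and 4.23 in Het and 1.55, 2.23 and 3.12 in KO, but not without KO 1 (-0.73, adjusted p = 0.0566). Slc5a3, the myo-inositol transporter, chosen after its values were seen, rose in KO from 6.86 ± 0.9895 to 12.3 ± 0.514 FPKM (SD).

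Slc16a3 (gene29641, chr11:120948484-120959000), the lactate exporter MCT4, fell stepwise. It measured 5.93, 11, 8.803 and 15.6 FPKM in WT, 3.73, 3.47, 4.23 and 4.18 in Het and 0.494, 0.379 and 0.372 in KO. The groups were separate although WT spread widely, from WT 1 to WT 4. It fell in Het (-1.14 ± 0.21 SE, adjusted p = 0.00128) and in KO (-2.93 ± 0.23 SE, adjusted p = 1.92e-06), where the mean was 0.0401 times that of WT. Slc16a1, the lactate transporter MCT1, measured 23.4, 19.7, 20.8 and 18.7 FPKM in WT, 12.4, 12.1, 12.6 and 11.6 in Het and 19.4, 18.8 and 17.5 in KO, and fell in Het (-0.71 ± 0.07 SE, adjusted p = 1.65e-05), where every library was below every other library, while KO differed from WT by -0.14 ± 0.08 (SE, adjusted p = 0.156), a fall called without scaling (-0.24, adjusted p = 0.0122). Slc16a13, of the same family, rose in both, with means of 1.82, 3.07 and 2.78 FPKM in WT, Het and KO. Of the chaperones that carry MCT1 and MCT4 to the surface, Bsg averaged 324, 275 and 319 FPKM in WT, Het and KO with no call against WT, and Emb fell in Het (-0.73, adjusted p = 9.73e-05) and rose in KO (0.34, adjusted p = 0.015). Of the 4 monocarboxylate members 1 rose and 1 fell in KO, or 1 rose and 2 fell without scaling, and in Het 1 rose and 2 fell. The share called was 50% in KO and 75% in Het, beside 47.1% and 43.8% of all genes. The GC correction gave 1 up and 1 down in KO, and 1 up and 2 down in Het. Their sum was 35.5 to 40.5 FPKM in WT, 22.7 to 24.3 in Het and 25.5 to 27.5 in KO.

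The promoters of Slc2a1 and Slc16a3 are shown because both hold ACGTGC, the core of the hypoxia response element, and the genes moved in opposite directions in KO. The 150 bases before the RefSeq start (GRCm38.p6), in the same layout, are Slc2a1 (chr4:119108595-119108744, plus strand, 1 match) and Slc16a3 (chr11:120948917-120949066, plus strand, 2 matches), with ACGTGC in capitals.
Slc2a1: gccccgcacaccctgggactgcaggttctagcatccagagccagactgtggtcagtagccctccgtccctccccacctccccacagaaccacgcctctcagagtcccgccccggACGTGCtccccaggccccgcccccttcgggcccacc
Slc16a3: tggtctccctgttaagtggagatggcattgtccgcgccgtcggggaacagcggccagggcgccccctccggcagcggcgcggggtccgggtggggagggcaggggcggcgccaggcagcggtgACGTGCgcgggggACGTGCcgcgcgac
The string occurred in 5.91% of all windows and 8.05% of the members' windows. The bases printed for Slc16a3 lie inside the locus of the deposited tables. Hif1a, the hypoxia factor's regulated subunit, rose in both groups (0.92, adjusted p = 6.95e-06 in KO; 0.74, adjusted p = 2.53e-05 in Het), and so did its targets Hk2 and Ldha (0.72, adjusted p = 3.13e-05 and 0.39, adjusted p = 0.000142 in KO). Transcript levels of Hif1a do not measure the protein.

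Nucleoside and nucleobase carriers held some of the largest changes, although of 4 members 1 rose and 1 fell in KO and 2 rose in Het. Called genes made up 50% of the group in KO and 50% in Het, beside 47.1% and 43.8% of all genes. The GC correction gave 1 up and 0 down in KO, and 2 up and 0 down in Het. Slc29a1 (gene40332, chr17:45585200-45599608), the equilibrative nucleoside transporter ENT1, measured 40.02, 52.9, 47.6 and 59.3 FPKM in WT, 51.9, 48.6, 56.5 and 54.96 in Het and 162, 174 and 178 in KO. KO was far above the other libraries, which overlapped. The KO mean was 3.44 times that of WT (1.77 ± 0.11 SE, adjusted p = 4.08e-07), and Het differed by 0.10 ± 0.10 (SE, adjusted p = 0.491). This gene made up 85.5% of its class's summed FPKM. Slc43a3 (gene4079, chr2:84936545-84958509), a carrier of purine nucleobases, measured 0.172, 0.338, 0.146 and 0.0905 FPKM in WT, 11.3, 10.6, 11.3 and 10.97 in Het and 0, 0 and 0 in KO, so that only the Het libraries held it above 1 FPKM. It was listed at 0 in every KO library, for which no fold is given. Slc29a3, an intracellular nucleoside carrier chosen after its values were seen, rose in Het from 6.67 ± 0.641 to 9.23 ± 0.655 FPKM (SD).

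Fatty acid transport proteins of the Slc27 family moved in opposite directions. Slc27a1 measured 1.61, 1.995, 1.695 and 4.17 FPKM in WT, 4.27, 3.99, 4.82 and 5.49 in Het and 7.47, 9.48 and 15.2 in KO, and Slc27a3 measured 2.55, 4.26, 3.79 and 6.402 FPKM in WT, 2.995, 2.76, 2.99 and 2.96 in Het and 1.73, 1.24 and 1.11 in KO. KO was separate from both other groups in each gene, above them for Slc27a1 and below them for Slc27a3. The KO differences were 1.81 ± 0.26 (SE, adjusted p = 0.000192) and -1.11 ± 0.20 (SE, adjusted p = 0.000857), at a transcript GC content of 56.9% and 60.9%, and after the GC correction 1.66 (adjusted p = 6.3e-06) and -1.37 (adjusted p = 2.83e-05). The Het rise of Slc27a1 (0.80 ± 0.24 SE, adjusted p = 0.0199) was not called without WT 1, WT 3 or Het 4 (adjusted p = 0.0503 to 0.0561), nor without the filter on low values (adjusted p = 0.0504). The other 3 members of the class, Slc27a4 and the choline carriers Slc44a1 and Slc44a2, were not called in KO, although without scaling 1 member rose and 3 fell in KO. With the GC correction Slc27a4 fell in KO by a log2 difference of -0.54 (adjusted p = 2.79e-05) and in Het by -0.26 (adjusted p = 0.00366). Of the 5 members of the class 1 rose and 1 fell in each group. The share called was 40% in KO and 40% in Het, beside 47.1% and 43.8% of all genes, and the GC correction gave 1 up and 2 down in KO, and 1 up and 3 down in Het.

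Mitochondrial carriers, the largest class, fell more often than they rose. In KO 3 of 34 rose and 9 fell, and in Het 2 rose and 10 fell, called shares of 35.3% in each beside 47.1% and 43.8% of all genes. The GC correction gave 4 up and 10 down in KO, and 8 up and 11 down in Het. No member of the class changed 2-fold. The class sum was 1663 ± 87.3 FPKM over the 4 WT libraries, 1674 ± 54.4 over the 4 Het libraries and 1662 ± 74.8 over the 3 KO libraries (all SD), with all groups overlapping.

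The abundant carriers moved little. The ADP/ATP exchanger Slc25a4 averaged 465, 502 and 537 FPKM and Slc25a5 245, 267 and 263 FPKM in WT, Het and KO, and neither was called in any comparison; without WT 4, Slc25a4 was called in KO (0.32, adjusted p = 0.0481), and without WT 2 (0.16, adjusted p = 0.0447) or after the GC correction (0.17, adjusted p = 0.0377), Slc25a5 in Het. The phosphate carrier Slc25a3 measured 419.5, 400.0, 434 and 359.9 FPKM in WT, 388, 379, 368 and 363 in Het and 342, 312 and 312 in KO, and its KO libraries lay below all WT and Het libraries (-0.32 ± 0.07 SE, adjusted p = 0.00326). Its fall against Het (-0.22, adjusted p = 0.0262) was not called without Het 1, Het 2, KO 3 or KO 4 (adjusted p = 0.0586 to 0.0963).

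The 2 aspartate and glutamate carriers of the malate-aspartate shuttle parted. Slc25a13 (citrin) measured 14.1, 11.1, 15.5 and 11.9 FPKM in WT, 13.5, 14.2, 12.9 and 13.4 in Het and 25.3, 24.1 and 22.5 in KO and rose in KO (0.83 ± 0.10 SE, adjusted p = 5.45e-05), where every library was above every other one. Slc25a12 (aralar), chosen after its values were seen, measured 16.3, 14.6, 14.8 and 15.9 FPKM in WT, 18.5, 19.5, 18.6 and 17.1 in Het and 10.4, 10.8 and 10.7 in KO, falling in KO (-0.49 ± 0.06 SE, adjusted p = 8.27e-05) and rising in Het (0.24 ± 0.06 SE, adjusted p = 0.00647).

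Slc25a20, the carnitine and acylcarnitine carrier of fatty acid oxidation, measured 18.9, 17.2, 21.5 and 19.2 FPKM in WT, 10.5, 12.6, 11.8 and 11.5 in Het and 14.5, 12.2 and 12.7 in KO. WT lay above both mutant groups, which overlapped (-0.52 ± 0.09 SE, adjusted p = 0.000723, in KO and -0.68 ± 0.08 SE, adjusted p = 7.38e-05, in Het). The peroxisomal Slc25a17 fell in Het (-0.28 ± 0.08 SE, adjusted p = 0.0133), with Het 2 inside the WT range. Slc25a27, an uncoupling protein, rose in KO from 1.94 to 3.62 FPKM (0.65 ± 0.09 SE, adjusted p = 0.000179); its Het rise (0.26, adjusted p = 0.0296) was lost without Het 2, WT 2 or WT 3 (adjusted p = 0.0702 to 0.0796). It was also lost with the replicate block (adjusted p = 0.0511), in the fit of the 2 groups alone (adjusted p = 0.054) and without the filter on low values (adjusted p = 0.0679). Slc25a39, a mitochondrial glutathione carrier, spread from 36.2 in WT 1 to 94.4 FPKM in WT 4, at a GC content of 59.7%. It was not called, but without WT 4 it rose in Het (0.74, adjusted p = 0.0175) and KO (0.66, adjusted p = 0.0345). With the GC correction it was called in Het, at 0.38 (adjusted p = 0.00408), and not in KO, at 0.19 (adjusted p = 0.112). Outside the Slc symbols, both mitochondrial pyruvate carrier genes fell in both groups, Mpc1 from 39.9 to 28.4 FPKM and Mpc2 from 36.6 to 23.9 FPKM between WT and KO.

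Metal transporters also fell more often than they rose. In KO 2 of 24 rose and 6 fell, and in Het 3 rose and 9 fell. Called genes made up 33.3% of the group in KO and 50% in Het, beside 47.1% and 43.8% of all genes. The GC correction gave 3 up and 12 down in KO, and 4 up and 9 down in Het, and without KO 4 only 5 were called in KO in place of 8. Without scaling 2 rose and 9 fell in KO. The scaled class sum was 462 to 487 FPKM in WT, 407 to 421 in Het and 449 to 466 in KO, so Het lay below both other groups. Its gap to KO rests on scaling, with factors of 0.9368 in KO 1 (lowest KO sum) and 1.025 in Het 3 (highest Het sum).

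**Figure D5:**
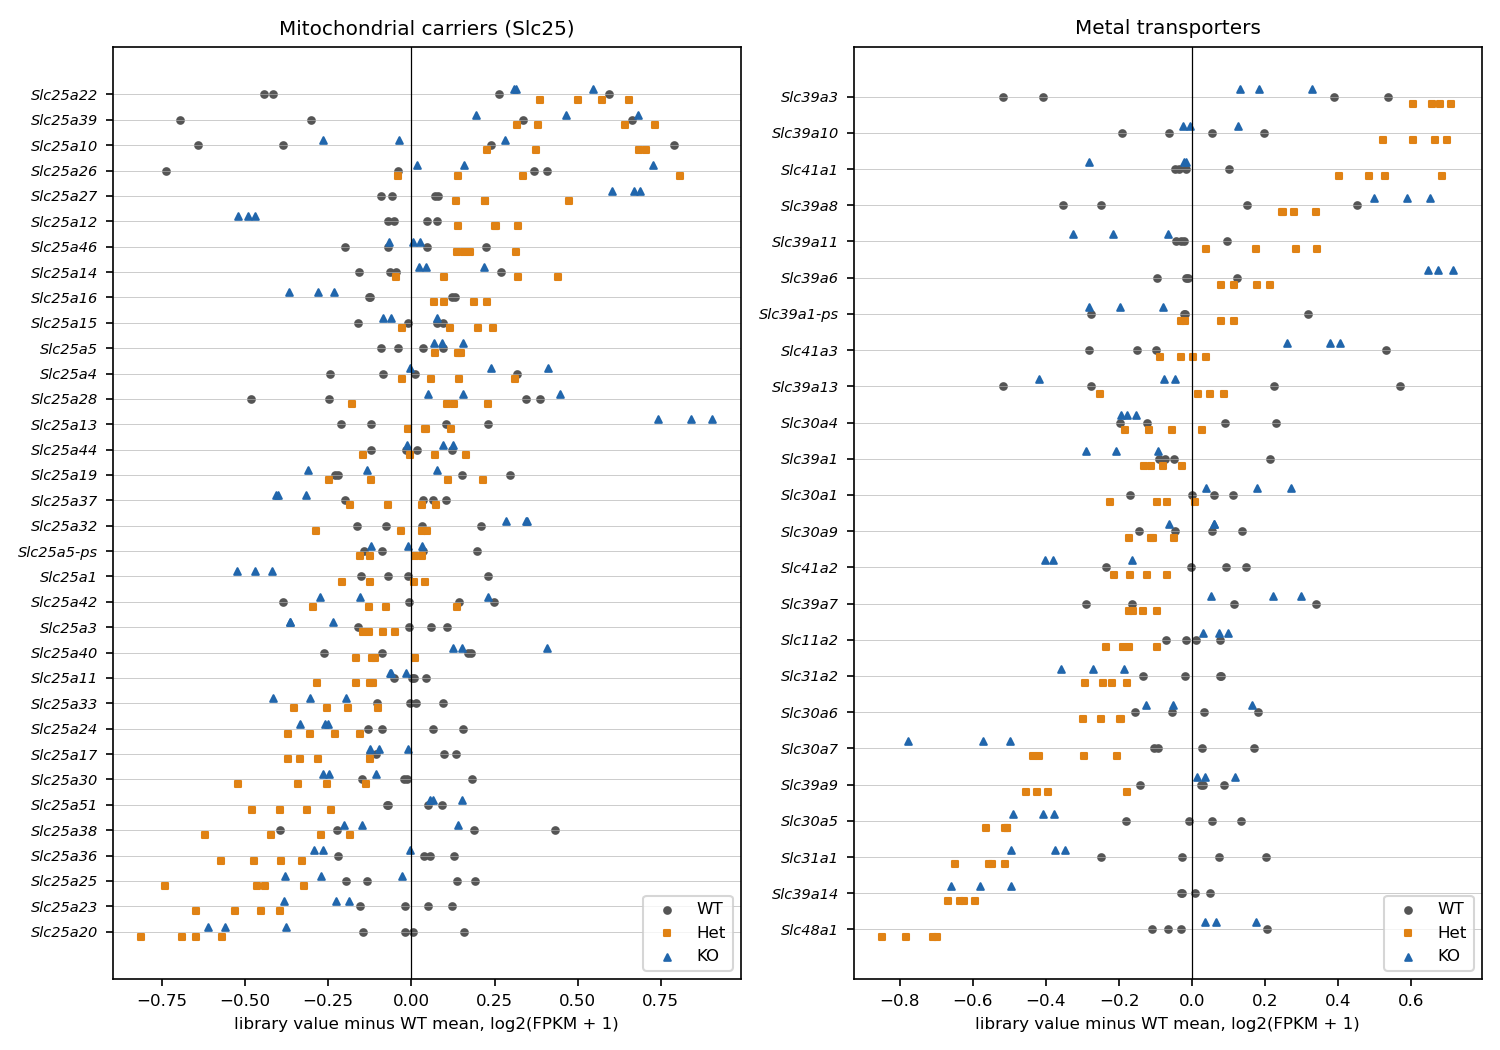
The 34 mitochondrial carriers (left) and 24 metal transporters (right), in rows ordered by the Het minus WT difference, with each library's value minus the WT mean on the log2(FPKM + 1) scale (x axis). Squares (Het) of Slc25a20, at the foot of the left panel, lie near -0.68, and those of Slc48a1, at the foot of the right panel, near -0.76, while the KO triangles of Slc48a1 lie near 0.09.

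Slc39a14, which imports zinc, iron and manganese, measured 13.1, 13.4, 13.8 and 13.01 FPKM in WT, 8.49, 8.28, 8.22 and 8.01 in Het and 8.58, 9.15 and 8.05 in KO. It fell in both mutant groups, which overlapped below WT (-0.58 ± 0.06 SE, adjusted p = 1.75e-05, in KO and -0.63 ± 0.06 SE, adjusted p = 6.73e-06, in Het). Slc30a7, which fills the Golgi with zinc, measured 15.3, 15.4, 16.9 and 18.7 FPKM in WT, 11.96, 12.1, 14.2 and 13.3 in Het and 9.22, 10.8 and 11.4 in KO and fell in KO (-0.62 ± 0.10 SE, adjusted p = 0.000333). It also fell in Het (-0.34 ± 0.09 SE, adjusted p = 0.00974), a call lost after the GC correction (adjusted p = 0.0592). Its KO minus Het difference (-0.28, adjusted p = 0.0359) was lost without Het 3, Het 4, KO 1 or KO 3 (adjusted p = 0.0655 to 0.149), without the filter on low values (adjusted p = 0.0624) and after the GC correction (adjusted p = 0.177). Slc39a6, a zinc importer, measured 27.7, 25.1, 25.2 and 23.7 FPKM in WT, 27.6, 28.9, 29.6 and 26.9 in Het and 40.3, 41.1 and 42.4 in KO and rose in KO (0.68 ± 0.06 SE, adjusted p = 6.61e-06). Slc39a8, another importer of zinc and manganese, rose in KO (0.58 ± 0.17 SE, adjusted p = 0.0139), where WT values ran from 1.44 to 3.27 FPKM and KO values from 3.404 to 3.91, and was not called without KO 4 (adjusted p = 0.0501). Members singled out after their values were seen were Slc39a10 and the magnesium carrier Slc41a1, which rose in Het alone among the tests against WT (0.62, adjusted p = 0.000179; and 0.53, adjusted p = 0.000471; after the GC correction Slc41a1 was also called in KO, at -0.20, adjusted p = 0.0375), and the copper importer Slc31a1, which fell in KO (-0.41, adjusted p = 0.0047) and Het (-0.57, adjusted p = 0.000417).

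Slc48a1, which moves heme out of endosomes and lysosomes, measured 32.4, 33.4, 40.6 and 34.3 FPKM in WT, 19.9, 21.2, 21.1 and 19.01 in Het and 39.6, 36.7 and 35.96 in KO. Het stood below the overlapping WT and KO libraries, with -0.76 ± 0.07 (SE, adjusted p = 1.48e-05) in Het and 0.09 ± 0.08 (SE, adjusted p = 0.376) in KO. Slc40a1, the iron exporter ferroportin, lay outside the members, and measured 0.691, 0.464, 0.264 and 0.328 FPKM in WT, 1.66, 1.89, 2.34 and 1.79 in Het and 3.99, 3.28 and 2.29 in KO. The transferrin receptor Tfrc, which brings iron into the cell, fell in both groups (-0.49, adjusted p = 0.00214 in KO and -0.64, adjusted p = 0.000281 in Het).

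Slc30a1, the zinc exporter of the plasma membrane and a known target of the metal-responsive factor MTF1, measured 2.62, 2.75, 2.47 and 2.08 FPKM in WT, 2.49, 2.31, 2.25 and 1.97 in Het and 3.19, 2.93 and 2.56 in KO. The groups overlapped against WT (0.16 ± 0.10 SE, adjusted p = 0.189, in KO and -0.10 ± 0.09 SE, adjusted p = 0.418, in Het), although KO was called after the GC correction (0.23, adjusted p = 0.0271). Its KO minus Het difference (0.26, adjusted p = 0.0491) was not called in 8 of the 11 fits that left out a library (all but WT 4, Het 1 and KO 4, adjusted p = 0.0563 to 0.17), nor without scaling (adjusted p = 0.128), without the filter (adjusted p = 0.106) or with a pseudocount of 0.1 (adjusted p = 0.0536). The metallothioneins Mt1 and Mt2, which bind zinc and share that regulator, rose in both groups. In WT, Het and KO they averaged 22.7, 82.4 and 154 FPKM and 12.5, 38.7 and 82.2 FPKM (KO against WT 2.84, adjusted p = 0.000446 and 2.84, adjusted p = 0.000409), while Mtf1 itself averaged 3.63, 3.25 and 3.94 FPKM, was not called against WT and rose from Het to KO (0.22, adjusted p = 0.0425). The promoter of Slc30a1 is shown for this contrast (chr1:191906631-191906780, plus strand, GRCm38.p6), as the 150 bases before the RefSeq start, with capitals for the match on the minus strand to the metal response element, searched as TGCACNC or TGCGCNC.
Slc30a1: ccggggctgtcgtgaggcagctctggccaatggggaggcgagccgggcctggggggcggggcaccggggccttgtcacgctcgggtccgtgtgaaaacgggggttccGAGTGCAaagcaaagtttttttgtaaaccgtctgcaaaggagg
This element occurred in 25.7% of all windows and in 37.9% of the members' windows. The RefSeq start of Slc30a1 also lies inside the locus of the deposited tables.

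Nucleotide sugar carriers and other carriers of the Golgi and endoplasmic reticulum were split in KO, with 5 of 22 up and 5 down, and fell more often in Het, with 5 up and 10 down. The share called was 45.5% in KO and 68.2% in Het, beside 47.1% and 43.8% of all genes. Without scaling 4 rose and 8 fell in KO, and the GC correction gave 5 up and 6 down in KO, and 8 up and 11 down in Het. Slc35f2 (gene23328, chr9:53771226-53818161), a carrier found at the plasma membrane and known for uptake of a cytotoxic drug, measured 2.99, 3.23, 4.26 and 2.85 FPKM in WT, 2.48, 2.44, 2.07 and 1.92 in Het and 0.07802, 0.1003 and 0.198 in KO. KO was near 0, at 0.0376 times the WT mean (-1.94 ± 0.12 SE, adjusted p = 3.13e-07), and Het lay between (-0.42 ± 0.11 SE, adjusted p = 0.00994). Slc35a3, the UDP-N-acetylglucosamine carrier, measured 30.6, 24.8, 26.4 and 20.3 FPKM in WT, 17.5, 17.5, 15.8 and 15.5 in Het and 15.5, 15.6 and 13.5 in KO, falling in both mutant groups (-0.73 ± 0.12 SE, adjusted p = 0.000418, in KO and -0.58 ± 0.11 SE, adjusted p = 0.00137, in Het). Slc35f5 rose in Het alone among the tests against WT, measuring 15.1, 13.4, 13.9 and 11.8 FPKM in WT, 26.1, 25.3, 25.4 and 23.3 in Het and 15.9, 15.96 and 14.4 in KO (0.84 ± 0.07 SE, adjusted p = 7.06e-06). Without WT 1 it was also called in KO (0.23, adjusted p = 0.0373), as it was after the GC correction (0.26, adjusted p = 0.000692) and with the replicate block (0.18, adjusted p = 0.0371). Slc35b1, the most abundant member of the class, which brings ATP into the endoplasmic reticulum, averaged 67.2, 53.8 and 60.3 FPKM and fell in Het (-0.31 ± 0.06 SE, adjusted p = 0.00186). Its KO difference (-0.16, adjusted p = 0.076) was called without WT 2, without scaling and after the GC correction. Slc35e4 overlapped between groups and was called in KO (0.88, adjusted p = 0.0197), but not without WT 3, KO 3 or KO 4 (adjusted p = 0.0519 to 0.0851). Slc35c1, the GDP-fucose carrier, averaged 6.82 ± 0.603 FPKM over the 4 WT libraries, 9.08 ± 0.437 over the 4 Het libraries and 4.63 ± 0.472 over the 3 KO libraries (all SD), and is named because only 3 members rose in Het and fell in KO.

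Few inorganic ion members were called, with 4 of 19 up and 1 down in KO and 3 up and 3 down in Het, shares of 26.3% and 31.6% beside 47.1% and 43.8% of all genes. Without WT 4, 11 members were called in KO in place of 5, and the GC correction gave 6 up and 3 down in KO, and 6 up and 6 down in Het, so these counts depend on WT 4 and on the GC correction. Without scaling 4 rose and 4 fell in KO. Slc12a2, the sodium, potassium and chloride cotransporter NKCC1, measured 14.3, 11.5, 12.3 and 10 FPKM in WT, 14.8, 15.4, 15.4 and 14.3 in Het and 29.9, 27.9 and 27.5 in KO, with KO above both other groups (1.18 ± 0.10 SE, adjusted p = 2.92e-06). Slc24a3, a potassium-dependent sodium and calcium exchanger, measured 2.57, 2.33, 2.41 and 2.67 FPKM in WT, 11.3, 11.1, 11.7 and 10.9 in Het and 11.7, 8.97 and 8.57 in KO. Both mutant groups lay above WT (1.61 ± 0.10 SE, adjusted p = 2.44e-07, in KO and 1.81 ± 0.09 SE, adjusted p = 8.8e-08, in Het). Slc4a4, a sodium bicarbonate cotransporter, measured 3.43, 2.69, 3.77 and 2.64 FPKM in WT, 1.23, 1.52, 1.19 and 1.22 in Het and 5.16, 4.71 and 3.85 in KO, with Het lowest (-0.84 ± 0.11 SE, adjusted p = 0.000134) and KO highest (0.43 ± 0.12 SE, adjusted p = 0.0124; without KO 1, adjusted p = 0.056). Slc8b1, the mitochondrial sodium and calcium exchanger, rose in KO from 6.62 ± 1.65 to 10.04 ± 1.19 FPKM (SD) (0.55, adjusted p = 0.00974).

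The scaffold proteins Slc9a3r1 and Slc9a3r2, which tie membrane proteins to ezrin, averaged 25.2, 31.7 and 31.97 FPKM and 21.1, 13.9 and 13.9 FPKM in WT, Het and KO, with no call. At a transcript GC content of 58.5% and 61.6%, both were called in both groups after the GC correction. Slc9a3r1 then differed by 0.18 (adjusted p = 0.0168) in KO and 0.26 (adjusted p = 0.00123) in Het, and Slc9a3r2 by -0.76 (adjusted p = 2.63e-05) and -0.65 (adjusted p = 5.91e-05).

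All 3 members of the Slc22 family fell in both mutant groups, beside 23.8% of all genes called lower in KO and 22.1% in Het. They did so with or without scaling and after the GC correction. Slc22a5, the carnitine transporter OCTN2, measured 6.72, 6.29, 7.21 and 6.39 FPKM in WT, 4.43, 4.98, 5.13 and 4.84 in Het and 3.38, 2.75 and 3.45 in KO, and fell stepwise without overlap (-0.87 ± 0.08 SE, adjusted p = 1.02e-05, in KO and -0.39 ± 0.08 SE, adjusted p = 0.00211, in Het). Its neighbour on chromosome 11, Slc22a21, another carnitine transporter, measured 6.35, 6.01, 6.67 and 5.61 FPKM in WT, 4.51, 3.53, 3.702 and 3.52 in Het and 4.57, 2.97 and 3.75 in KO and fell in both (-0.60 ± 0.12 SE, adjusted p = 0.00172, in KO and -0.58 ± 0.11 SE, adjusted p = 0.00161, in Het). Slc22a23, of unknown substrate, was lowest in Het, averaging 4.13, 1.89 and 2.87 FPKM in WT, Het and KO (-0.83, adjusted p = 1.22e-05 in Het). In the whole class of 5 organic ion and bile acid carriers 1 rose and 3 fell in KO, and 4 fell in Het with none up. The share called was 80% in KO and 80% in Het, beside 47.1% and 43.8% of all genes. The GC correction gave 1 up and 3 down in KO, and 1 up and 4 down in Het.

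Vitamin carriers did not share a direction, with 2 of 7 up and 2 down in KO, and 1 up and 1 down in Het. Called genes made up 57.1% of the group in KO and 28.6% in Het, beside 47.1% and 43.8% of all genes. The GC correction gave 2 up and 2 down in KO, and 2 up and 1 down in Het. Slc46a1, the proton-coupled folate transporter, measured 4.47, 4.21, 5.75 and 6.73 FPKM in WT, 4.803, 3.63, 4.34 and 4.23 in Het and 1.54, 1.69 and 2.18 in KO, with KO below both other groups (-1.16 ± 0.14 SE, adjusted p = 7.11e-05) and Het at -0.25 ± 0.13 (SE, adjusted p = 0.162). Slc23a2, which takes up vitamin C, measured 8.03, 8.53, 8.76 and 7.59 FPKM in WT, 6.69, 6.97, 6.94 and 6.897 in Het and 4.89, 5.03 and 5.69 in KO and fell in KO (-0.57 ± 0.07 SE, adjusted p = 6.61e-05); its Het fall (-0.23, adjusted p = 0.0163) was lost without WT 3 (adjusted p = 0.0512). Slc19a2, the thiamine transporter, measured 6.49, 5.39, 6.29 and 5.12 FPKM in WT, 9.21, 9.55, 10.7 and 9.46 in Het and 8.04, 8.72 and 7.63 in KO, rising in both (0.66 ± 0.08 SE, adjusted p = 9.58e-05, in Het and 0.42 ± 0.09 SE, adjusted p = 0.00256, in KO).

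Of the 6 phosphate, sulfate and dicarboxylate carriers 2 rose and 1 fell in KO, and without scaling 1 rose and 1 fell. In Het 2 rose and 1 fell. The share called was 50% in KO and 50% in Het, beside 47.1% and 43.8% of all genes, and the GC correction gave 1 up and 2 down in KO, and 3 up and 1 down in Het. The phosphate importer Slc20a1 averaged 34.8, 31.5 and 34.7 FPKM in WT, Het and KO and was not called, with 2 SE either side of the KO difference spanning -0.16 to 0.15. Its relative Slc20a2 measured 9.43, 12.2, 9.65 and 13.8 FPKM in WT, 13.1, 13.1, 13.3 and 14.2 in Het and 16.9, 18.1 and 19.9 in KO and rose in KO (0.67 ± 0.12 SE, adjusted p = 0.000841). The sulfate carrier Slc26a2 fell in KO (-0.41 ± 0.08 SE, adjusted p = 0.00139) from 5.92 to 4.197 FPKM. Slc26a11 rose in Het (0.59 ± 0.12 SE, adjusted p = 0.00194), while its KO rise (0.34, adjusted p = 0.0458) was lost without WT 1, WT 3, WT 4, KO 1, KO 4, Het 2 or Het 4 (adjusted p = 0.0514 to 0.149). That KO rise was also lost without scaling (adjusted p = 0.104), without the filter (adjusted p = 0.101), in the fit of the 2 groups alone (adjusted p = 0.0658) and after the GC correction (adjusted p = 0.0706). The phosphate exporter Xpr1, outside the Slc symbols, fell in KO (-0.62, adjusted p = 9.09e-05). Slc18b1, a vesicular polyamine transporter placed with the taurine and creatine carriers, fell in KO (-0.49 ± 0.11 SE, adjusted p = 0.00304) from 11.7 ± 1.67 to 7.99 ± 0.541 FPKM (SD). Of that class of 3, 2 rose and 1 fell in KO and none was called in Het, and the GC correction gave 2 up and 1 down in KO, and 1 down in Het.

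Transporters outside the Slc symbols were counted by symbol from a list set for this work, which also took in some non-transporters named below. Of 72 tested, 26 rose and 20 fell in KO, and 16 rose and 26 fell in Het. Called genes made up 63.9% of the group in KO and 58.3% in Het, beside 47.1% and 43.8% of all genes. The vacuolar proton ATPase, which acidifies lysosomes, had 19 symbols, among them the pseudogenes Atp6v0c-ps1 and Atp6v0c-ps2, neither called in KO or Het. Of the 19, 11 rose and 3 fell in KO, beside 23.3% of all genes called higher and 23.8% lower. In Het 3 rose and 4 fell, a called share of 36.8% beside 43.8%. Among them Atp6v1d went from 44.95 to 75.2 FPKM and Atp6v1g1 from 56.9 to 98.5 FPKM. Atp1b1, a β subunit of the sodium and potassium pump that supplies the gradient many Slc members use, measured 22.1, 19.96, 21.8 and 16.7 FPKM in WT, 14.7, 15.1, 15.2 and 13.4 in Het and 57.8, 58.6 and 55.02 in KO. Its groups did not overlap, with Het lowest and KO highest (-0.43 ± 0.08 SE, adjusted p = 0.00179, in Het and 1.47 ± 0.09 SE, adjusted p = 3.37e-07, in KO). Both water channels tested rose in KO and Het, Aqp1 to 15.8 and Aqp5 to 18.9 FPKM in KO. Genes with ABC symbols fell more often than they rose, 9 against 3 of 23 in KO and 10 against 4 in Het. Among the 23 are Abce1, Abcf1, Abcf2 and Abcf3, which lack membrane domains and are not transporters. Abce1 is among the KO falls and Abcf2 among the Het falls, while Abcf1 and Abcf3 were not called against WT. The share called was 52.2% in KO and 60.9% in Het, beside 47.1% and 43.8% of all genes.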

How the data were processed

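The members and gene lists were chosen with earlier results of these data known. RNA was sequenced from 11 libraries with a stranded mRNA kit, per the labels. The deposited FPKM were made by the authors with Cufflinks 2.2.1 from TopHat2 2.1.0 alignments to GRCm38.p4, and Cuffdiff is named without a version, per the submitters' processing notes. The tables hold no read counts. Loci (48892) were joined by ID and position, 31 symbols turned into dates in WT 1 were restored, and FPKM were summed per symbol (8 members sum several loci). Where near-identical copies share reads, as for Slc25a5 and its pseudogene, the split is uncertain.

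Median-of-ratios scaling used 13981 genes and gave factors from 0.937 to 1.04. Genes of at least 1 FPKM in 3 libraries were kept (14948), and limma 3.58.1 (R 4.3.3) was run on log2(FPKM + 1) with 1 mean per group, a mean-variance trend and Benjamini-Hochberg adjustment over all genes, threshold 0.05. "Rose" and "fell" mark calls. Every log2 difference given is one of log2(FPKM + 1), so changes of low genes are understated. The median half-width of the Cufflinks interval of the members, which covers estimation error only, was 10.5% (WT 4) to 15.9% (WT 3).

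The fit was also run on simulated data, whose outcome is not reported here. Named members are the 10 highest and lowest of KO against WT, 6 of each other comparison (all called and not overlapping), up to 3 called per class, the 10 most abundant, and genes listed by name; others are marked as chosen after their values were seen. Promoters come from RefSeq (GRCm38.p6), transcript GC content from GENCODE, for the longest transcript, in 20 bins for the correction. Pairing of replicate numbers was checked. Replicates 1 and 4 shared part of their deviation across groups, as given below, while replicates 2 and 3 did not, and the main fit left the number out. Alternatives were the pseudocount, the filter, the scaling, the highest locus per symbol, fits of the compared groups alone, the replicate block, a stricter member limit, leaving out each library and, chosen after seeing the data, the GC correction and transporter symbols alone.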

Additional observations from a re-analysis of the deposited data

Results flagged for a closer look

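In 6 of 120 groups of 4 libraries, among the 60 named members, 1 library stood apart from the other 3 by most of the group's range; chance gives about 1 in 20. WT 4 was high for Slc27a1 (4.169 FPKM, the others 1.613 to 1.995), and WT 1 for Slc26a2 (6.606, the others 5.601 to 5.767). Het 1 was high for Slc38a7 (12.43, the others 9.877 to 10.2) and Het 2 for Slc4a4 (1.516, the others 1.191 to 1.233). Het 2 was low for Slc27a3 (2.759, the others 2.96 to 2.995) and Het 3 for Slc25a5 (257.0, the others 269.7 to 271.3). Without WT 4 the Slc27a1 differences kept their calls against WT in KO and Het.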

How the results depend on the processing

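For the number of Slc members called, leaving out 1 library at a time gave 67 to 93 in KO against WT (36 to 50 up, 31 to 43 down), 71 to 99 in Het against WT (23 to 38 up, 48 to 61 down) and 67 to 89 in KO against Het (40 to 55 up, 27 to 34 down). With the replicate block the counts were 83, 89 and 81. Same-numbered libraries correlated from -0.101 to 0.352, over 0.1 in 5 of 10 pairs, all of replicate 1 or 4. WT 4 and KO 1 correlated at -0.398, and WT 1 and KO 4 at -0.312. The correlation with GC content was negative in replicate 1 and positive in replicate 4 of every group. The labels name no pairs, so the numbers were not taken as pairs in the main fit. The number that rose in Het (29) was 19 when members needed a mean of at least 5 FPKM (133 members, fewer genes) and 48 after the GC correction, for which the cause was not tested. With the 161 transporter symbols alone 79, 82 and 74 members were called. The GC correction and the transporter symbols were chosen after seeing the data. Of 118 called results of named genes, 99 kept their call in all 18 alternatives, and no called result changed sign. Precision is limited by 3 or 4 libraries a group and, for members under 10 FPKM, by the depth of WT 3 and KO 1.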

Other observations

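Several Slc genes below the 2 FPKM limit for members differed between the groups. These were picked after their values were seen, so they are given as values. Slc43a1, a transporter of large neutral amino acids, measured 0.266, 0.394, 0.214 and 0.221 FPKM in WT, 0.361, 0.132, 0.108 and 0.416 in Het and 2.59, 2.84 and 2.29 in KO, and so was held above 1 FPKM in KO only. Slc25a48, a mitochondrial choline carrier, measured 2.59, 3.39, 3.601 and 3.74 FPKM in WT, 0, 0.119, 0.0698 and 0.0622 in Het and 0.179, 0.477 and 0.482 in KO, high in WT only. Slc22a17, a receptor for the iron-binding protein lipocalin 2, measured 1.895, 3.4, 1.74 and 3.99 FPKM in WT, 0.885, 0.895, 0.994 and 1.47 in Het and 0.306, 0.443 and 0.508 in KO, with no overlap between the groups, WT highest and KO lowest. Slc25a43 measured 0.797, 0.653, 0.306 and 0.749 FPKM in WT, 2.04, 1.61, 0.869 and 0.535 in Het and 3.29, 3.02 and 2.41 in KO, with KO above both other groups, which overlapped.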
